A study of Mus musculus with 20 samples.

Results

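The longest unbroken stretches of H3K27ac in the wild-type medial ganglionic eminence (MGE) are described here. Members were chosen by a measured value, the length of the called region: a long region was an H3K27ac region of at least 5000 bases on chromosomes 1 to 19 in the wild-type list, counted after summits sharing the same start and end had been merged. Of 61478 wild-type regions 385 met this limit, or 0.626%. They held 2745 kb, which is 4.9% of all bases in wild-type H3K27ac regions. Their median length was 6204 bases (quartiles 5472 and 7626), 38 reached 10000 bases, and the longest had 47493 bases.

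The libraries came from mouse embryos at embryonic day 13.5. The histone marks H3K27ac, H3K4me3, H3K4me1 and H3K27me3 were profiled by chromatin immunoprecipitation and sequencing in MGE tissue of the C57BL/6 strain, either Wildtype or Nkx2-1cKO, a conditional knockout of Nkx2-1 that is called the mutant here. The transcription factors NKX2-1 and LHX6 were profiled in Wildtype basal ganglia of the outbred CD-1 strain, so factor binding and histone marks come from different strains and dissections. The labels name neither the Cre driver nor the deleted segment, and they do not say how many embryos were pooled. Each antibody and genotype had 1 library, and without replicates no error between samples can be given, no difference was tested, and every comparison of genotypes describes these libraries. The H3K27ac libraries held 57.3 M tags (M, 1e+06) in wild type and 55.9 M in the mutant after duplicates were removed.

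H3K27ac is placed on histones at active promoters and enhancers by the acetyltransferases p300 and CBP. Most acetylated regions are short, but clusters of enhancers and some promoters of cell-identity genes carry broad, unbroken acetylation, and such stretches are often called super-enhancers or broad domains. H3K4me3 marks promoters, H3K4me1 marks enhancers and the flanks of promoters, and H3K27me3 is the mark of Polycomb repression. The MGE is the ventral forebrain zone that gives rise to many cortical and striatal interneurons. NKX2-1 specifies this zone, and LHX6, a LIM homeodomain factor that acts downstream of it, directs interneuron migration and subtype fate.

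Long regions at the miR-9 genes headed the ranking by length, and the sequences below show the product that the loci share. miR-9 is an abundant microRNA of the developing brain that regulates neural progenitor genes, and its mature 5p form is encoded at 3 places in the mouse genome. Mir9-1 lay in the longest region and Mir9-3 in the second longest. The mature sequences, from RefSeq (GRCm38.p6), are the same at both loci, and capitals mark the seed, bases 2 to 8.

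miR-9-5p: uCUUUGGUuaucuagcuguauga

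miR-9-3p: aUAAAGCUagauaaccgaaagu

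The hairpins differ outside the mature parts, and capitals mark miR-9-5p within them.

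Mir9-1 hairpin: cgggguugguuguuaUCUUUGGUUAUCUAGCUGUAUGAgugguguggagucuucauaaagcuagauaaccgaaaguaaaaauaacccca

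Mir9-3 hairpin: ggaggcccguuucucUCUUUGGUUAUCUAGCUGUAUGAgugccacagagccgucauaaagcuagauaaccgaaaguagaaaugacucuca

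Factor binding inside long regions is shown by the bases within 50 of a summit, the position at which the peak caller placed the top of a peak. Chosen were the 3 strongest NKX2-1 summits in long regions under 50% covered by mutant H3K27ac, the 3 strongest in long regions at least 90% covered, and the 3 strongest LHX6 summits in long regions, all by p-value, leaving out peaks that overlap all 10 lists. Capitals mark the NK2 core in NKX2-1 windows, which is CACTTGA or CACTCAA on either strand. In LHX6 windows they mark the LIM core, which is TAATTA or TAATGA on either strand. All are on the plus strand of mm9 (NCBIM37). The NKX2-1 window near Guca2b is left out because it overlaps the LHX6 window there.

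NKX2-1 summit near Ttll11, chr2:35867148-35867248: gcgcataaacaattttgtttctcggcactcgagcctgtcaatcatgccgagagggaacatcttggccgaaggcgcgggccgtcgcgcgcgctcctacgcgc

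NKX2-1 summit in the Lhx6 region, chr2:35959702-35959802: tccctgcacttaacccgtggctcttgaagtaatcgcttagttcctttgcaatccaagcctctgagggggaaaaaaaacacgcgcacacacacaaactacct

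NKX2-1 summit near Fbln2, chr6:91251868-91251968: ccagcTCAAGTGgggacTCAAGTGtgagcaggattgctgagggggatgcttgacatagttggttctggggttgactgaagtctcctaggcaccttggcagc

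NKX2-1 summit in the Rhcg region, chr7:86735411-86735511: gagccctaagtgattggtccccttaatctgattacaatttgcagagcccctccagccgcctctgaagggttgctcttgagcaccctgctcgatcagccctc

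NKX2-1 summit in Dscaml1, chr9:45471591-45471691: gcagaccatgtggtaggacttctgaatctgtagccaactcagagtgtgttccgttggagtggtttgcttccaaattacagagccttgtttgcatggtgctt

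LHX6 summit near Guca2b, chr4:119342706-119342806: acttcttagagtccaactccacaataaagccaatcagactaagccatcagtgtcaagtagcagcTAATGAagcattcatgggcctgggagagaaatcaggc

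LHX6 summit in the Dlx2 region, chr2:71374171-71374271: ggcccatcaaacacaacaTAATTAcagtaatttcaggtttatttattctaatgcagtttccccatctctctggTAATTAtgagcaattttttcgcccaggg

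LHX6 summit near Arl4d, chr11:101557657-101557757: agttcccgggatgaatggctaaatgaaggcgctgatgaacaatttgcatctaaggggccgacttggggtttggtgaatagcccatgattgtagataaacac

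Only the window near Fbln2 held an NK2 core among the NKX2-1 windows printed, and 2 of the LHX6 windows held a LIM core.

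Before the results, 4 long regions need to be set apart. In Sfi1, 3 regions between 3031916 and 3063544 on chromosome 11, and near Pgk2 the region chr17:39979891-39985812, had H3K27me3 on 100% of their bases in both genotypes, H3K4me3 and H3K4me1 on at least 98.7%, and a factor peak that overlapped all 10 lists. The TSS of Pgk2 lay 359.7 kb from the region named for it. In the reference, 19.4%, 10.7% and 4.55% of the 32-base words sampled in the Sfi1 regions and 18.6% of those near Pgk2 occurred more than once, beside a median of 1.19% over long regions. With 2 further regions, 6 long regions held such a peak, and leaving all 6 out gave 379 regions with a median mutant coverage of 98.7% and 9 under 50%, as with them. The share with an LHX6 summit was then 7.65% and that with H3K27me3 21.4%.

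**Figure D1:**
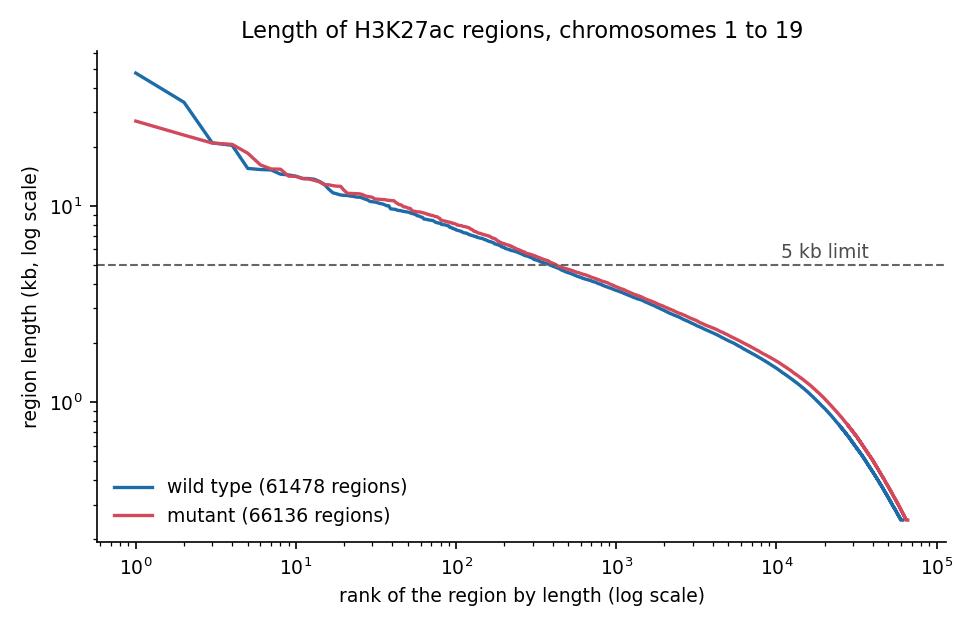
Length of every H3K27ac region (vertical axis, kb, log scale) against its rank by length (horizontal axis, log scale) in the wild-type and mutant lists. The curves run close together except at the top, where the longest wild-type region has 47.5 kb and the longest mutant region 27 kb.

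At the top of the ranking the wild-type list held stretches that the mutant list did not have in 1 piece. The longest region, chr3:88000684-88048176, covered 47.5 kb around Mir9-1, overlapped Rhbg (an ammonium transporter gene) and had an enrichment of 22.6-fold over input in the authors' list. Mutant H3K27ac covered 80.4% of it in 16 separate regions, the longest of 11.6 kb. The second, chr7:86640341-86674050, covered 33.7 kb around Mir9-3 and the noncoding transcript AI854517, 29.1 kb from Polg (mitochondrial DNA polymerase), and mutant H3K27ac covered 98.7%. The reverse also occurred. A mutant region of 22.9 kb at Notch1, among the longest of the mutant list, spanned long regions that were separate in wild type.

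The third locus of the same microRNA lay beside, not in, a long region. The third longest region, chr13:83853123-83874069, covered 20.9 kb at 189.1 kb from Mef2c, a transcription factor gene of neurons and muscle, and mutant H3K27ac covered 99.7%. Mir9-2, at chr13:83878411-83878497, began 4.34 kb beyond its end, inside a separate wild-type region of 4.09 kb that was 100% covered in the mutant. Other brain microRNA genes also lay in long regions. By GENCODE positions, Mir124a-1 and Mir124a-3, which encode the neuron-enriched miR-124, lay in regions of 11.7 kb (98.8% covered in the mutant) and 11.3 kb (87.6%). By RefSeq hairpins, which did not include these Mir124 genes, 8 long regions (2.08%) held a microRNA, beside 0.177% of all wild-type regions. A longer region can hold more by its length alone. Per Mb there were 4.01 hairpins in long regions, beside 2.07 in all H3K27ac regions. The long regions held only 11 hairpins, and Mir219a-1 overlapped Mir219c, as Mir9-1 did Gm25641.

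The other 9 of the 12 longest included regions at Bcl11b, Mn1 and Sox2. They covered 20.3 kb in Gm20388 near the mitochondrial gene Acsf3 (89% covered in the mutant), 15.5 kb within Bcl11b (90.4%), and 15.3 kb over the start of Mn1, a transcriptional regulator (100%). A region of 15.2 kb lay 2.33 kb from Sox2, the neural stem cell factor (100%), and 14.5 kb lay over the start of Bcl11b, a zinc finger gene of striatal neurons (100%). Others lay in Anks1 (14.4 kb, 97.8%), over Gm5607 (13.8 kb, 99.7%) and in the kinase gene Src (13.8 kb, 98.1%). Each of the 12 longest thus stood at 80.4% or more.

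Most long regions had no annotated protein-coding start inside, although some of these had the promoter mark H3K4me3 on most of their bases. A protein-coding transcription start site (TSS) lay inside 150 regions (39%, exact 95% interval 34.1 to 44), beside 16.7% of all wild-type regions and 39.4% of those of 3000 to under 5000 bases, the class closest in length. Of the 235 regions without one, 68 had H3K4me3 on at least 50% of bases, and no such share was computed for other regions without a TSS. No TSS lay within 2.5 kb of 216 (56.1%, beside 69.9%), and 269 overlapped the body of a protein-coding gene. Gene bodies covered on average 57.9% of a long region's bases, beside 55.5% over all regions. Another long region lay within 50 kb of 138 long regions (35.8%), a count for which no share of other regions was computed. Their GC content had a median of 52% beside 50.4% over all regions, and the ratio of observed to expected CpG was 0.286 beside 0.289. TSS-holding long regions had a CpG ratio of 0.443, below the 0.654 of all TSS-holding regions, while those without a TSS within 2.5 kb had 0.235 beside 0.238.

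The genes whose starts lay in long regions included transcription factor genes that define the ventral forebrain. The TSSs of 159 of 21281 protein-coding genes on these chromosomes lay in a long region, or 0.747%. Among genes with a TSS in any wild-type H3K27ac region the share was 1.56%. Of 35 MGE and ventral transcription factors 11 had their TSS in a long region (31.4%), among them Dlx5, Lhx6, Dlx2, Dlx1, Six3, Lmo1, Olig2, Zeb2, Nkx2-1 and Dlx6. Of 29 cortical interneuron genes there were 6, among them the GABA synthesis genes Gad1 and Gad2, the vesicular GABA transporter gene Slc32a1, the chemokine receptor gene Cxcr7 and the ephrin receptor gene Epha4. Progenitor and Notch genes gave 8 of 31, with the receptor Notch1, its ligands Dll1 and Dll3, its target Hes5, and Nfib, Sox9, Nes and Sox4.

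Other lists held fewer. Genes of the lateral and caudal eminences gave 3 of 28 (Bcl11b, Six3 and Meis2), Groucho and chromatin regulators 4 of 22 (Bcl11b, Bcl11a, Kdm6b and Chd3), FGF, WNT, BMP and retinoic acid signalling 2 of 24 (Fgfr2 and Rara), the SHH pathway 1 of 12 (Ptch1), pan-neuronal genes 1 of 23 (Tubb3) and the oligodendrocyte lineage 1 of 9 (Olig2). The remaining lists were at 0. None of 16 pallial neuron genes, 11 genes of endothelium, mural cells and blood, 5 microglial genes, 20 Hox genes or 13 housekeeping genes had a TSS in a long region. All 13 housekeeping genes had their TSS in some wild-type H3K27ac region, whereas 1 pallial, 1 endothelial and no microglial or Hox gene did.

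**Figure D2:**
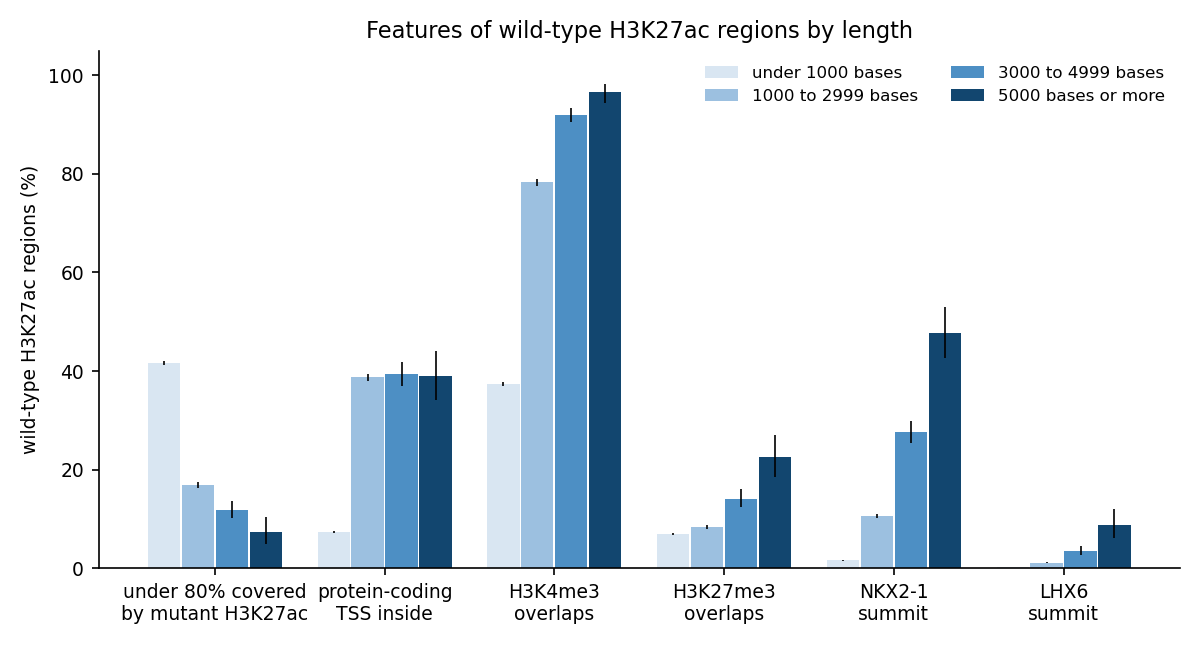
Percent of wild-type H3K27ac regions (vertical axis) with each feature in 4 length classes, from under 1000 bases (light) to 5000 bases or more (dark). Bars start at 0 and lines are exact 95% binomial intervals, which cover counting error only. Long regions were less often poorly covered in the mutant and more often held a factor summit or overlapped H3K27me3, which length alone can raise, and their share with a TSS was like that of regions from 1000 bases up.

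Nearly all long acetylated stretches were also acetylated in the Nkx2-1 mutant. The share of a region's bases covered by mutant H3K27ac had a median of 98.7% (95% order-statistic interval 98.3 to 99), and 120 regions were covered completely. This share was at least 95% in 275 regions (71.4%, beside 49.7% of all wild-type regions and 62.1% of those of 3000 to under 5000 bases). It was under 50% in 9 regions (2.34%, 1.07 to 4.39), beside 23.4% of all wild-type regions and 2.23% of those of 3000 to under 5000 bases. Under 80% were 28 regions (7.27%, 4.89 to 10.3), beside 34.1% of all regions and 11.8% of the next shorter class. None was at 0, which allows a share of up to 0.954%, beside 19.6% over all regions and 0.135% of the next shorter class. A longer region is less likely to be at 0 by its length alone.

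Long regions were also the more strongly enriched ones, with a median enrichment of 14.5-fold over input in the authors' list, 11.7-fold in the next shorter class and 4.59-fold over all regions. The part of enrichment in the differences between length classes was not tested. Since bulk tissue was used, fewer acetylated cells and less acetylation per cell cannot be told apart in any of these values. Joining wild-type regions within 1 kb before applying the length limit gave 1500 long regions, measured against the unjoined mutant list. Their median mutant coverage was 83.7%, and 156 were under 50%. Bridged gaps had no wild-type H3K27ac call either but counted as uncovered where the mutant had none, which favours lower coverage. A limit of 6000 bases gave 2 under 50%.

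Choosing regions by their wild-type length favours lower coverage in the mutant, so the reverse was also measured. The mutant list had 420 regions of at least 5000 bases, with a median of 96.8% (96.1 to 97.3) of bases covered by wild-type H3K27ac. Only 3 were under 50% (0.714%, beside 35.4% of all mutant regions) and 32 under 80% (7.62%, beside 51.1%). Of the long wild-type regions 71.9% overlapped a long mutant region, and of the long mutant regions 65% overlapped a long wild-type region. The 3 were chosen after their values were seen. The region over Nkx2-9, an NK2 homeobox gene, covered 5.42 kb at chr12:57710673-57716094 with no wild-type H3K27ac. A region 37 kb from Vax1, a ventral forebrain homeobox gene, covered 5 kb (34.7% wild type), and 1 at 21.3 kb from Boc, a SHH co-receptor gene, covered 11.6 kb (44.5%).

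**Figure D3:**
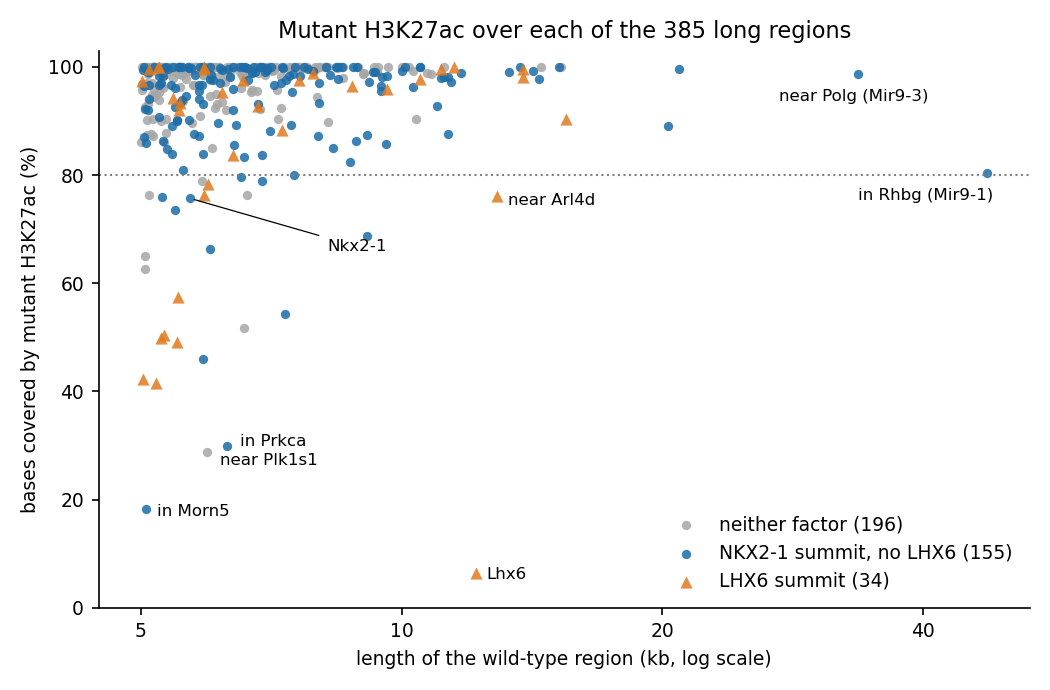
Percent of bases covered by mutant H3K27ac (vertical axis) against the length of each of the 385 long wild-type regions (horizontal axis, kb, log scale), with regions holding an LHX6 summit as triangles. Most points lie above 95%, the dotted line marks 80%, and Lhx6, at 12.2 kb and 6.41%, is the only region over 10 kb that lies under 50%.

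Lhx6 was the long region with the least acetylation in the mutant. The region chr2:35950391-35962565 covered 12.2 kb over the start of the gene, and mutant H3K27ac covered 6.41% of it. H3K4me3 covered 98.1% in wild type and 57.8% in the mutant, and H3K4me1 64.8% and 23.8%. H3K27me3 covered 97.8% and 100%. Both promoter and Polycomb marks thus lay over the gene's start in wild type, and in the mutant H3K27me3 covered the whole region. The region held 2 NKX2-1 summits and 1 LHX6 summit, all outside the remaining mutant acetylation.

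Of the 3 long regions around Lhx6, those farther from its TSS were covered more, an order of 3 regions that was not tested. In Morn5, 23.8 kb from the Lhx6 TSS, a region of 5.07 kb was 18.2% covered by mutant H3K27ac, and its H3K4me1 went from 85.6% to 19.2%. The region near Ttll11 (a tubulin-modifying enzyme gene) lay 29.4 kb from the TSS of that gene and 89.8 kb from the Lhx6 TSS. It covered 5.28 kb and was 49.8% covered. Its H3K27me3 covered 11.9% in wild type and 31.1% in the mutant. It held the NKX2-1 summit with the strongest p-value among long regions under 50% (13.6-fold over input), whose window is printed above.

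Further regions under 50% lay elsewhere. Near Plk1s1 a region of 5.96 kb over the noncoding transcript Gm14114 was 28.8% covered, with H3K27me3 at 94.1% in wild type and 100% in the mutant and no factor summit. In Prkca, the gene of protein kinase C alpha, a region of 6.29 kb was 30% covered and its H3K4me1 went from 61.3% to 16.6%. Near Guca2b, a peptide hormone gene, the share was 41.6% over 5.21 kb.

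In Cux1, a homeobox gene, it was 42.4%, in the histamine receptor gene Hrh3 46%, and near the mevalonate kinase gene Mvk 49.2%. Just above the limit were the regions near Zc3h12a (50.4%, 152.8 kb from its TSS) and in Ttc7b (51.7%). Of the 12 lowest regions 1, Lhx6, had a TSS inside, and 10 held a summit of NKX2-1, LHX6 or both, as did 189 of all 385 long regions (49.1%, beside 5.12% of all wild-type regions).

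At Nkx2-1 itself, the targeted gene, the long region chr12:57633728-57639430 of 5.70 kb was 75.7% covered by mutant H3K27ac. All of the uncovered 1388 bases lay at the 3′ side of the region inside the gene, and 74.9% of them were exonic. In these bases H3K4me3 covered 100% in wild type and 24.7% in the mutant, and H3K27me3 91.9% and 0. Deleted DNA and lost marks cannot be told apart here, because the labels do not give the deleted segment. The rest of the region was acetylated in the mutant and held 3 NKX2-1 summits, called in wild-type tissue.

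Apart from Lhx6 and Nkx2-1, long regions over the starts of genes of the lists were at 82.4% or more. The 11 regions of the MGE and ventral list had a median of 99.8%, with 8 at 95% or more and Lmo1, a LIM-only factor, at 82.4%. Dlx1, Dlx2, Dlx5 and Dlx6, homeobox genes needed for GABAergic neurons throughout the ganglionic eminences, stood between 99% and 100%. The 6 interneuron regions lay between 97.7% and 100%, the 8 progenitor regions between 94% and 100%, and the 3 of the lateral and caudal list at 100%. Ptch1, the SHH receptor, was at 100% and Tubb3, a neuronal tubulin, at 94.1%.

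**Figure D4:**
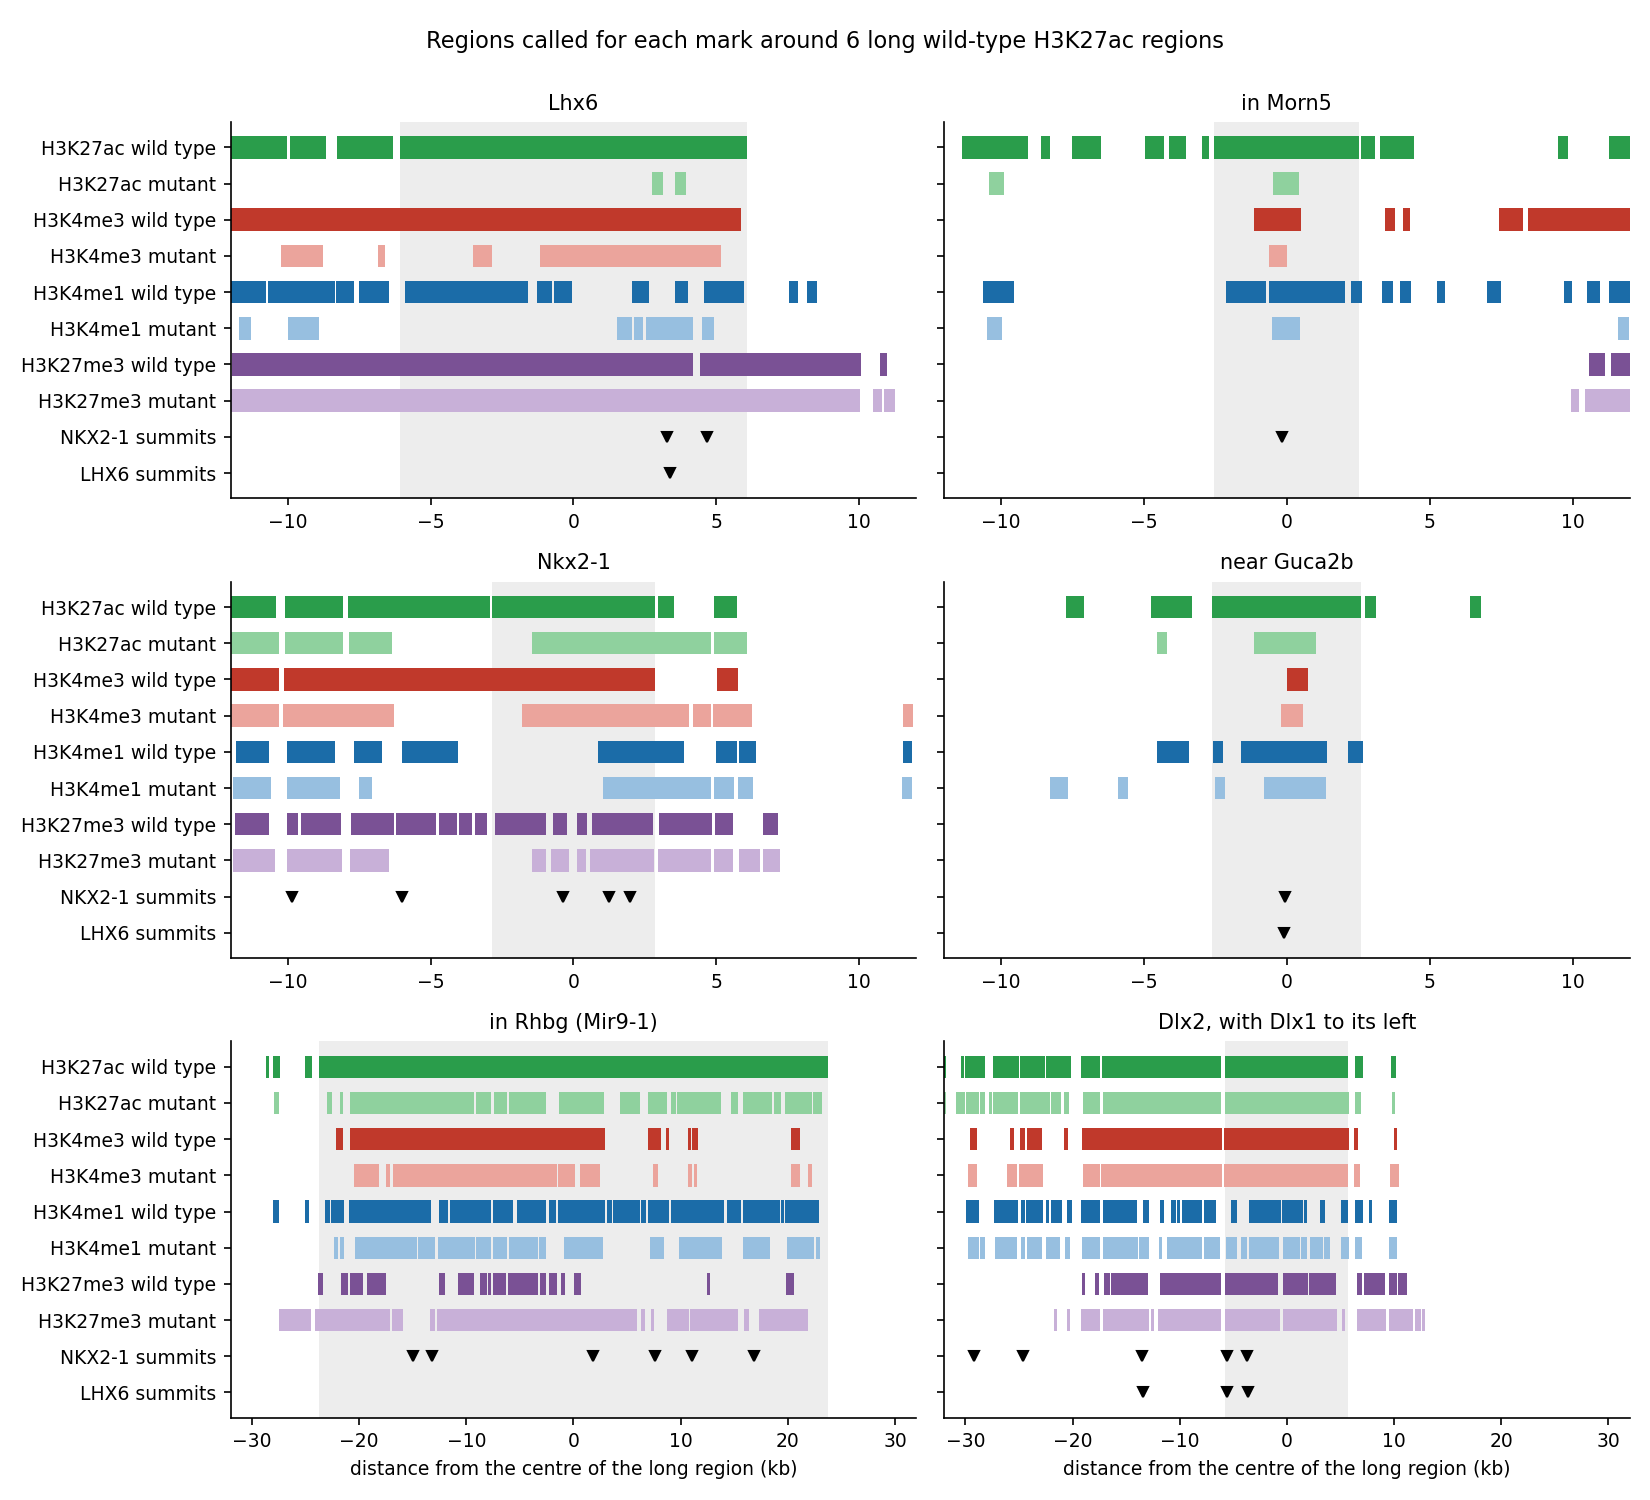
Called regions of each mark (bars) and factor summits (triangles) around 6 long wild-type H3K27ac regions, shaded, against the distance from the region's centre (kb). Mutant H3K27ac is nearly absent over Lhx6, remains as short pieces at the NKX2-1 or LHX6 summits in Morn5 and near Guca2b, is missing at the left side of Nkx2-1, is broken but present over Mir9-1, and is unbroken over Dlx2.

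The bases without acetylation in the mutant were compared with the positions of the factor summits. In all, 160.1 kb of the long regions were uncovered in the mutant, 5.83% of their bases, and Lhx6 and Mir9-1 together held 12.9% of that. The largest uncovered stretch reached 1 kb in 24 regions, at the edge of the region in 13 and inside it in 11. Only this stretch was counted in each region. None of the 24 held an NKX2-1 or LHX6 summit, but other uncovered bases of the same regions did. At Lhx6 the stretch was 8.83 of 11.4 uncovered kb, and all summits of the region lay in its other uncovered bases. The 24 stretches sum to 43.1 kb. Long regions as a whole held 89.2 NKX2-1 and 12.7 LHX6 summits per Mb, and a difference of the stretches from this was not tested. Of 245 NKX2-1 summits in long regions 5 lay in uncovered bases (2.04%, 0.666 to 4.7), and of 35 LHX6 summits 2 did (5.71%, 0.7 to 19.2). The share for NKX2-1 was thus below the 5.83% of bases, and that for LHX6 was close to it. In regions of 3000 to under 5000 bases the values were 2.93% of NKX2-1 summits and 3.77% of LHX6 summits beside 7.71% of bases. For LHX6 the order was the other way in regions of 1000 to under 3000 bases (20% of summits beside 10.6% of bases) and over all regions (19.8% beside 17.5%). For NKX2-1 these were 7.69% and 10.1% of summits.

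These largest uncovered stretches also had less H3K4me1 in the mutant. Over the 24 stretches H3K4me1 covered 51% of bases in wild type and 13.2% in the mutant, and its share was lower in 19 and higher in 1. H3K4me3 covered 35.5% and 18%, and H3K27me3 30.2% and 32.6%. Without the Lhx6 stretch of 8.83 kb, H3K4me1 covered 46.5% and 13.6%. The 28 regions under 80% covered differed in the same way as a whole, with H3K4me1 on 69.6% of bases in wild type and 50.8% in the mutant, lower in 26 of 28. In the other 357 regions H3K4me1 covered 81.8% and 79.3%, and its share was lower in 205 and higher in 147. The stretches and the 28 regions were chosen for missing mutant H3K27ac. No such values were computed for shorter regions or for bases acetylated in the mutant alone, so a trait of long regions cannot be read from them.

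NKX2-1 bound in 184 long regions (47.8%, 42.7 to 52.9) and LHX6 in 34 (8.83%, 6.19 to 12.1), counted by summits inside. Over all wild-type regions the shares were 4.92% and 0.631%, but a longer region can hold more summits by its length alone. Per Mb of region, NKX2-1 had 89.2 summits in long regions, 81.4 in those of 3000 to under 5000 bases and 56.2 over all regions. LHX6 had 12.7, 9.71 and 7.03. Both factors were found in 29 long regions (7.53%, beside 0.433% of all regions). The Mir9-1 region held 6 NKX2-1 summits, 6 regions held 3, and 44 held 2.

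Regions with 3 summits lay near Sox2, in Anks1, near Foxo6 (a forkhead gene), near Zfp516 (a zinc finger gene) and over Nkx2-1. Another was named for Cryba4, a crystallin gene with its TSS 303.6 kb away. The strongest LHX6 summits by enrichment lay near Guca2b (17.1-fold), over Dlx2 (12.7), near Arl4d (11.8), near Zc3h12a (10.2), near Gm10293 (10), near Ntrk2 (9.65), near Ttll11 (9.26) and in Cux1 (9.01), each against input in the authors' list. Of these 8 regions 6 were under 80% covered by mutant H3K27ac, from 41.6% to 78.3%. The exceptions were Dlx2 at 100% and, at 99.7%, the region named for Ntrk2, a neurotrophin receptor gene with its TSS 334.3 kb away.

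Long regions with an LHX6 summit were less completely covered in the mutant than those without. Under 80% were 10 of 34 regions with LHX6 (29.4%, 15.1 to 47.5) and 18 of 351 without (5.13%, 3.07 to 7.98). For NKX2-1 there were 20 of 184 (10.9%, 6.77 to 16.3) and 8 of 201 (3.98%, 1.73 to 7.69). The intervals cover counting error only and treat regions of 1 library pair as separate, so no difference between the factors was tested. The same split in regions of 3000 to under 5000 bases gave 34.6% with LHX6 and 11% without, and 17.6% with NKX2-1 and 9.61% without. Regions of 1000 to under 3000 bases gave 46.2% with LHX6 and 16.6% without, and 24.1% with NKX2-1 and 16.1% without. Over all wild-type regions the shares with and without LHX6 were closer (43.6% and 34.1%). Those for NKX2-1 had the opposite order (24.6% with and 34.6% without). All regions include those under 1000 bases, of which 1.62% held an NKX2-1 summit and 41.7% were under 80% covered.

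Regions with either factor also had less H3K4me3. Its median was 31.5% of bases with LHX6 and 63.5% without, and 44.8% with NKX2-1 and 74.9% without. Of the 34 regions with LHX6, 29 also held NKX2-1, so the factors are not separate groups. Within long regions having H3K4me3 on under 50% of bases, 9 of 21 with LHX6 (42.9%, 21.8 to 66) and 12 of 153 without (7.84%, 4.12 to 13.3) were under 80% covered. For NKX2-1 these were 17 of 97 (17.5%, 10.6 to 26.6) and 4 of 77 (5.19%, 1.43 to 12.8). In regions of 3000 to under 5000 bases with as little H3K4me3, the shares were 37.8% with LHX6 and 19.4% without. They were 28.1% with NKX2-1 and 16.5% without. Over all wild-type regions with as little H3K4me3, the shares with and without LHX6 were closer (56.8% and 49.4%). Those for NKX2-1 had the opposite order (45.7% with and 49.6% without). Both factors were called in wild type, where the regions were defined, and binding in the mutant was not analysed here.

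The motif cores spelled out above were searched on both strands at all summits. In windows of 201 bases, an NK2 core lay at 15.1% of the 245 NKX2-1 summits in long regions (10.9 to 20.2), beside 19.5% in other H3K27ac regions and 21.6% of all NKX2-1 peaks. A LIM core lay at 62.9% of 35 LHX6 summits (44.9 to 78.5), beside 45.4% and 42.4%. Both intervals held the share found in other H3K27ac regions.

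Nearly every long region carried the marks of both promoters and enhancers. Wild-type H3K4me1 overlapped all 385 (beside 83.8% of all regions), with a median of 83.4% of bases. H3K4me3 overlapped 372 (96.6%, beside 49.9%), and covered at least 50% of bases in 211 (54.8%, beside 42.1%). Of these 211 regions 143 held a TSS. In the next shorter class H3K4me3 overlapped 92% of regions and H3K4me1 99.9%, and a longer region can overlap more by its length alone. H3K4me3 covered at least 50% of bases in 55.4% of that class and in 62.1% of regions of 1000 to under 3000 bases. Long regions were thus not above these classes in that share. H3K4me3 covered under 20% of bases in 75 long regions, 3 of them with a TSS. Of the 75, 15 (20%, 11.6 to 30.8) were under 80% covered by mutant H3K27ac, beside 7 of 211 (3.32%, 1.34 to 6.72) among those with at least 50%. Low H3K4me3 went with lower coverage beyond long regions too. Of all wild-type regions without an LHX6 summit 34.1% were under 80% covered, and 49.4% of those with H3K4me3 on under 50% of bases.

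Some H3K27me3 was found on more of the long regions than of shorter ones, but a longer region can overlap more marks by its length alone. Wild-type H3K27me3 overlapped 87 long regions (22.6%, 18.5 to 27.1), beside 7.56% of all regions and 14.1% of the next shorter class, and it covered at least 50% of bases in 28 (7.27%, 4.89 to 10.3, beside 5.07% of all regions, which that interval holds). Without the 4 regions in Sfi1 and near Pgk2 these were 24 of 381 (6.3%). All 28 also had H3K4me3 on at least 50%. The same held for 67 of 68 such regions in the next shorter class and 2728 of 3120 over all regions. Long regions with both marks made up 7.27%, beside 4.44% of all regions. In dissected tissue, marks on the same chromosome and marks in different cells cannot be told apart. Regions over ventral patterning and GABA genes were part of this group. Of the 11 regions of the MGE and ventral list 8 had at least 50% H3K27me3, from Dlx6 at 78.4% to Olig2 at 99%, as had 3 of the 6 interneuron regions (Gad1 92.8%, Gad2 94.1%, Slc32a1 96.7%) and none of the 8 progenitor regions.

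**Figure D5:**
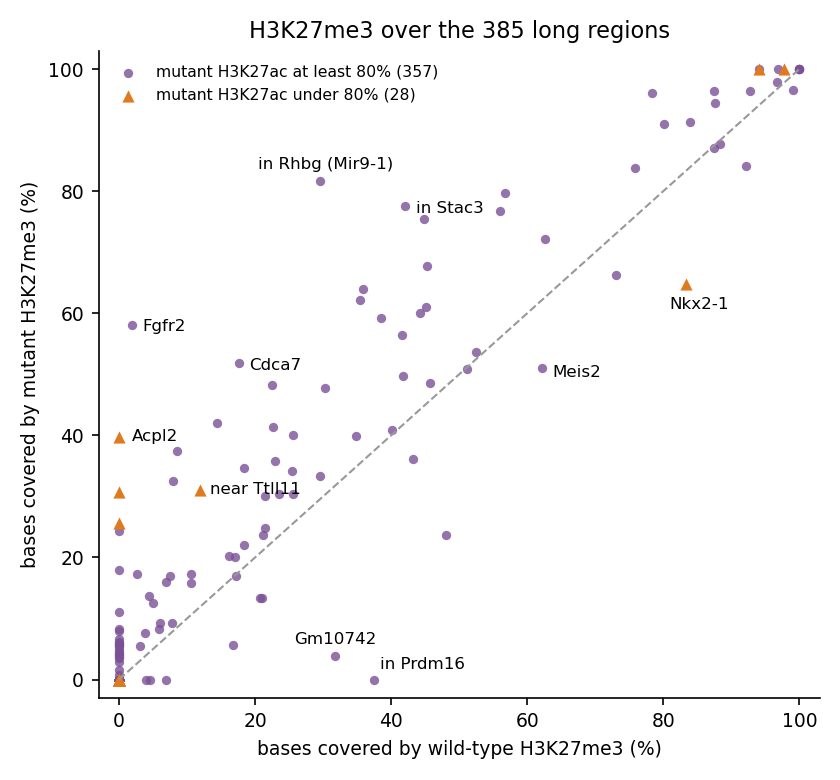
Percent of bases covered by H3K27me3 in the mutant (vertical axis) against wild type (horizontal axis) for the 385 long regions, with those under 80% covered by mutant H3K27ac as triangles and the diagonal dashed. More points lie above the diagonal than below it, with Fgfr2 and the Mir9-1 region far above and the regions in Prdm16 and over Gm10742 far below.

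In the mutant H3K27me3 overlapped 106 long regions (27.5%, beside 9.98% of all regions), in a list that had more regions over the whole genome, 27229 against 20931. Its share was higher by at least 20 points in 19 long regions (4.94%, beside 3.6% of all regions) and lower by as much in 3 (0.779%, beside 0.649%). Both intervals (3 to 7.6 and 0.161 to 2.26) held the share of all regions. Of the 83 regions marked in both genotypes, 64 had a higher share in the mutant (16.6% of long regions, beside 3.56% of all regions) and 15 a lower one (3.9%, beside 1.2%). In the mutant list alone 23 were marked (5.97%, beside 2.91%), and in the wild-type list alone 4 (1.04%, beside 0.49%). Higher shares thus outnumbered lower ones among all regions too.

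The regions with the largest higher shares of H3K27me3 in the mutant included a signalling gene and a microRNA gene. It covered 1.92% of the region over Fgfr2, an FGF receptor gene, in wild type and 58.1% in the mutant. Over the Mir9-1 region it covered 29.6% and 81.6%, while H3K4me1 went from 89.4% to 66.8%. It covered 0 and 39.8% at Acpl2, a phosphatase-like gene, where mutant H3K27ac covered 62.6%. The others in order were in Stac3 (42.1% and 77.5%), over Cdca7, a cell cycle gene (17.6% and 51.8%), and in Igdcc3 (0 and 30.7%).

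At Fgfr2 mutant H3K27ac covered 99.4% and mutant H3K4me3 98.7%. Among the largest lower shares were those in Prdm16, a zinc finger regulator gene (37.5% in wild type and 0 in the mutant), at Gm10742 (31.8% and 3.79%), Nkx2-1 (83.3% and 64.8%), Meis2, a homeobox gene of the lateral eminence (62.2% and 51%), and Sox8 (16.7% and 5.67%). All of these but Nkx2-1 were at 100% for mutant H3K27ac.

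Differences of at least 20 points in H3K4me3 and H3K4me1 over long regions are given beside the next shorter class and all regions. The share of that class lay inside the interval of long regions in each case but 1, and just above it for higher H3K4me1. The H3K4me3 share was higher by at least 20 points in the mutant in 19 (4.94%, 3 to 7.6, beside 5.27% of that class and 12.1% of all regions). It was lower by as much in 2 (0.519%, 0.063 to 1.86, beside 1.49% and 1.4%, both inside the interval). The H3K4me1 share was lower by at least 20 points in 20 (5.19%, 3.2 to 7.91, beside 7.3% and 12.1%) and higher in 1 (0.26%, 0.00658 to 1.44, beside 1.62% and 8.3%). Over all bases of long regions H3K4me3 covered 58.6% in wild type and 62.3% in the mutant, and H3K4me1 81% and 77.5%. The input of H3K4me3 held 63.2 M tags in wild type and 39 M in the mutant, and its part in the H3K4me3 difference was not tested.

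The regions next to the length limit are given once. Just inside it, from 5002 to 5022 bases, were the regions at Cbfa2t3 (86.1% covered by mutant H3K27ac), near Tpcn2 (96.8%), near A230072I06Rik (97.4%), near Thy1 (100%) and near C130026L21Rik (95.7%). Just outside, from 4973 to 4994 bases, were those in Sil1 (31.6%), near 6430527G18Rik (92%), near Klf13 (92.3%), at 3300002A11Rik (91.8%) and at 2610203C20Rik (100%).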

How the data were processed

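Per the file headers, the authors called peaks with MACS 2.1.0.20140616 at a p-value of 1.00e-05 against input, with no local background and no fragment model. Fragments were taken as 250 bases long, duplicate tags were dropped to 1 at each position, and each region was divided at its summits. The submitters' processing notes name mm9 with BWA 0.6.2, MACS2 2.1.0, CASAVA 1.8.2 and bcl2fastq 1.8.4. Deposited columns read were a pileup signal, a −log10 p-value and a fold ratio over input. They rank peaks within a list only. Depth ranged from 26.8 to 89.1 M tags (M, 1e+06) after filtering, per the file headers. Merged alignment files were used as input, so pooling before calling is possible. A strong region is easier to call in either genotype, and a region missing from a list is below the caller's limit, not shown to lack the mark.

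From these lists, 8 of marks and 2 of factors among 20 libraries (the others, input and IgG, were not analysed here), rows sharing both ends of a region were joined into 1. The percent of bases of each long region covered by each other list was then computed. Versions were scipy 1.17.1, pandas 2.3.3, numpy 2.4.6 and matplotlib 3.10.9 under Python 3.11.15. Code was tested on simulated regions. Gene models were those of GENCODE vM1, and sequences were read from the NCBIM37 genome by coordinate, with chromosome 18 left out of the choice of windows. Hairpins were placed by matching RefSeq sequences within H3K27ac regions. Groups followed the titles in the labels. Intervals are exact (Clopper-Pearson for shares, order statistics for medians) and cover counting error only. Regions are named by protein-coding genes with a TSS inside, else by an overlapped or the nearest gene. Such a name gives a position, and no region was tied to a target gene.

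The text names the 12 longest, the 12 least covered, the 8 with most NKX2-1 summits, the 8 with the strongest LHX6 summit, regions with the most H3K27me3 and the 6 largest differences of H3K27me3 each way, those next to the limit, and the 8 longest of each gene list. Named after their values were seen were the last members of the MGE list, the microRNA genes and the 3 mutant regions. Some regions that these rules name are not reported here. The members, the 14 gene lists (290 entries, 278 matched on these chromosomes) and the rules were chosen with earlier results of these data known. Alternatives were other length limits, joined regions, stricter p-values, other overlap limits and, chosen after seeing the data, leaving out regions with a factor peak in all 10 lists.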

Additional observations from a re-analysis of the deposited data

How the results depend on the processing

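No paired analysis was possible because each antibody and genotype had 1 library, so leaving out a replicate was not possible either. Of 63 alternatives to 10 results, 43 stayed within the interval of the reported value, or for counts within 1.5 times of it, and 20 did not. A length limit of 4000 bases gave 788 long regions, 19 of them under 50% covered by mutant H3K27ac, 10 long mutant regions under 50% covered by wild type and 41.5% with an NKX2-1 summit. A limit of 6000 bases gave 213, 2, 1 and, for overlap with H3K27me3, 27.2%. Joining wild-type regions within 1 kb gave 1500 regions with a median of 83.7% covered and 156 under 50%, and joining mutant regions within 1 kb gave a median of 100%. Each joining changed 1 list only, which favours lower coverage for joined wild-type regions and higher coverage for joined mutant regions. Coverage limits of 25% and 75% gave 2 and 18 regions in place of 9. With an overlap of at least 10% of bases, 92.5% of long regions had H3K4me3 and 18.4% H3K27me3. With at least 50% these were 54.8% and 7.27%, and H3K4me1 was at 96.4%. With H3K27me3 regions of −log10 p of at least 10 the share was 17.9%. The counts of regions therefore follow the chosen limits, while the median mutant coverage moved only where regions were joined. Depth limits what can be said of weak sites, since a base counts as uncovered once its signal falls under the caller's limit.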
